A study of Sus scrofa with 17 samples.

Results

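The genes described here are 6 genes that buffer or supply cellular energy in muscle: CKM, CKMT2, AK1, AMPD1, SLC6A8 and GATM. They were chosen by gene symbol for their place in creatine and adenylate metabolism, each was found under its Ensembl identifier, and they are 6 of 31908 genes counted. All 6 were among the 14203 genes with enough reads to be tested. RNA came from the longissimus muscle of male piglets, Large White crossed with Duroc, which were 28 days old at the start and spent 5 days adapting and 2 weeks on trial. The Control group (n = 6, piglets 21 to 26) ate a diet of wheat, maize and soybean meal. The UL group (n = 6, piglets 27 to 32) ate that diet with 7% replaced by the green seaweed Ulva lactuca. The ULU group (n = 5, piglets 40 to 44) ate the same seaweed share with 0.01% ulvan lyase, an enzyme that degrades ulvan, a polysaccharide of the seaweed's cell wall. Each piglet gave 1 library, and the labels name no batch or pairing. Library totals ranged from 16137400 counts in ULU 41 to 26546800 in ULU 43, and 3 counts, taken as the floor of detection, corresponded to between 0.130 and 0.195 counts per 1000000 (CPM), which covers counting error only.

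As background, intense muscle contraction can spend ATP faster than mitochondria can replace it, and phosphocreatine serves as the nearby reserve. Cytosolic creatine kinase (CKM) passes phosphate from phosphocreatine to ADP at the contractile apparatus, and mitochondrial creatine kinase (CKMT2) recharges creatine with ATP leaving the mitochondria. Adenylate kinase (AK1) makes ATP and AMP from ADP, and AMP deaminase (AMPD1) removes AMP as IMP, which opens the purine nucleotide cycle. Creatine reaches muscle mostly through the plasma membrane carrier SLC6A8, while GATM catalyses the opening step of creatine synthesis, an activity known mainly from kidney and pancreas.

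Levels of these genes spanned more than 3 orders of magnitude per unit of length. Counts were scaled by TMM factors, which correct for differences in RNA composition, to CPM, and divided by the kilobases of annotated exons for comparisons between genes. CKM (ENSSSCG00000036132, chromosome 6, 51699165 to 51714813, minus strand, assembly Sscrofa11.1) had a mean of 3277 CPM per kb and stood at place 26 of the 14203 tested genes. AK1 (ENSSSCG00000005627, chromosome 1, 268355032 to 268365598, minus strand) had a mean of 598 CPM per kb, at place 62. AMPD1 (ENSSSCG00000006754, chromosome 4, 105868897 to 105893771, plus strand) had a mean of 339 CPM per kb, at place 99. All 3 of these enzymes were therefore among the most abundant messages of the muscle. CKMT2 (ENSSSCG00000014128, chromosome 2, 89796474 to 89832991, plus strand) had a mean of 113 CPM per kb, at place 300. SLC6A8 (ENSSSCG00000012771, chromosome X, 124294856 to 124453249, plus strand) had a mean of 2.24 CPM per kb, at place 6387. GATM (ENSSSCG00000004672, chromosome 1, 126361945 to 126380872, plus strand) had a mean of 1.67 CPM per kb, at place 7248. SLC6A8 and GATM thus lay in the middle of the tested genes, far below the kinases and the deaminase.

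The order of levels per kb was largely the same in every library. CKM lay above AK1 in 17 of 17 libraries, AMPD1 above CKMT2 in 17 of 17, and CKMT2 above SLC6A8 in 17 of 17, and the ranges of these pairs did not overlap. AK1 lay above AMPD1 in 16 of 17 libraries, the exception being Control 22, and their ranges overlapped. SLC6A8 lay above GATM in 13 of 17 libraries, not in Control 26, UL 29, UL 32 or ULU 42. Their ranges overlapped, and the difference between these neighbours was not tested. The exon lengths used here merge all annotated transcripts. For CKMT2 the longest of the exon blocks held 6038 of 7653 bases, and for AMPD1 it held 1780 of 4102. How far these lengths set the order of levels per kb was not tested. For CKM, 8 exon blocks gave 6402 bases, of which the longest block held 5365, and 1313 of the bases were shared with MARK4 on the opposite strand. MARK4 itself never had more than 21 counts, but reads over both genes were not counted, so reads lost on the shared bases were not measured. The span of SLC6A8 covered 158394 bases with a gap of 150076 between exon blocks, in which 5 other genes lay without sharing any exon base with it.

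**Figure D1:**
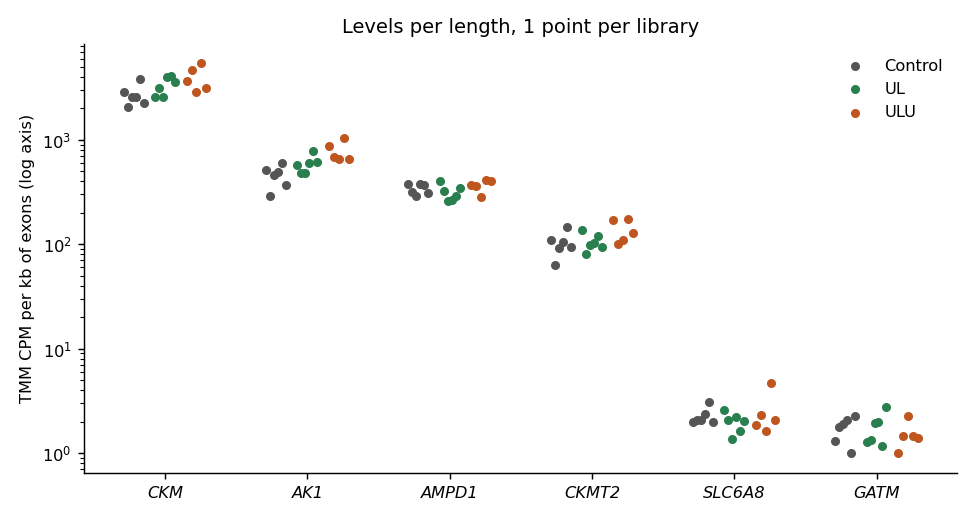
Levels of the 6 genes per kilobase of exons (TMM CPM per kb, log axis), 1 point for each of 17 libraries, grouped by diet. CKM lies highest with a mean of 3277, and SLC6A8 and GATM overlap at the bottom with means of 2.24 and 1.67.

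CKM alone took between 1.61% and 2.84% of all counts of a library. Its level in Control ranged from 13259 CPM (Control 22) to 24223 CPM (Control 25), with a median of 16504 CPM. In UL it ranged from 16513 to 26172 CPM with a median of 21439 CPM. In ULU it was 23355 CPM in piglet 40, 29801 CPM in 41, 18227 CPM in 42, 34458 CPM in 43 and 20163 CPM in 44. The 3 diets overlapped: ULU 40, ULU 42 and ULU 44 lay within the Control range, while ULU 41 and ULU 43 lay above every Control and UL library.

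CKMT2, the mitochondrial partner of CKM, ranged from 481 CPM (Control 22) to 1128 CPM (Control 25) in Control, with a median of 769.8 CPM. In UL it ranged from 616 to 1048 CPM with a median of 764 CPM. In ULU it was 1302 CPM in piglet 40, 767 CPM in 41, 847 CPM in 42, 1341 CPM in 43 and 981 CPM in 44. The diets overlapped here too, and only ULU 40 and ULU 43 exceeded the highest Control library.

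AK1 separated Control from ULU completely. In Control it ranged from 656 CPM (Control 22) to 1358 CPM (Control 25), with a median of 1081 CPM. In UL it ranged from 1083 to 1759 CPM with a median of 1329.7 CPM. In ULU it was 1961 CPM in piglet 40, 1544 CPM in 41, 1476 CPM in 42, 2382 CPM in 43 and 1494 CPM in 44. All 5 ULU libraries lay above the highest Control library, whereas UL overlapped both other diets.

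AMPD1, the step that turns AMP into IMP, varied least among the 6 genes. It ranged from 1190.1 to 1550.4 CPM in Control (median 1414 CPM), from 1073 to 1661 CPM in UL (median 1252 CPM) and from 1174 to 1692 CPM in ULU (median 1504 CPM). Its coefficient of variation over all 17 libraries was 14.7%, against 30.6% for AK1, 27.3% for CKM, 26.5% for CKMT2, 32.7% for SLC6A8 and 30.0% for GATM.

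The 2 genes of creatine supply had few reads. SLC6A8, the carrier, had 96 to 315 counts per library. Its level ranged from 6.56 to 10.2 CPM in Control (median 6.95 CPM), from 4.54 to 8.55 CPM in UL (median 6.85 CPM) and from 5.46 to 15.5 CPM in ULU (median 6.95 CPM). ULU 43, at 15.5 CPM, stood apart from the other ULU libraries, which reached at most 7.67 CPM. GATM, the synthesis enzyme, had 90 to 229 counts per library. Its level ranged from 4.42 to 9.94 CPM in Control (median 8.04 CPM), from 5.12 to 12.1 CPM in UL (median 7.21 CPM) and from 4.37 to 9.92 CPM in ULU (median 6.37 CPM). All 17 libraries lay well above the floor for both genes, and the diets overlapped.

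**Figure D2:**
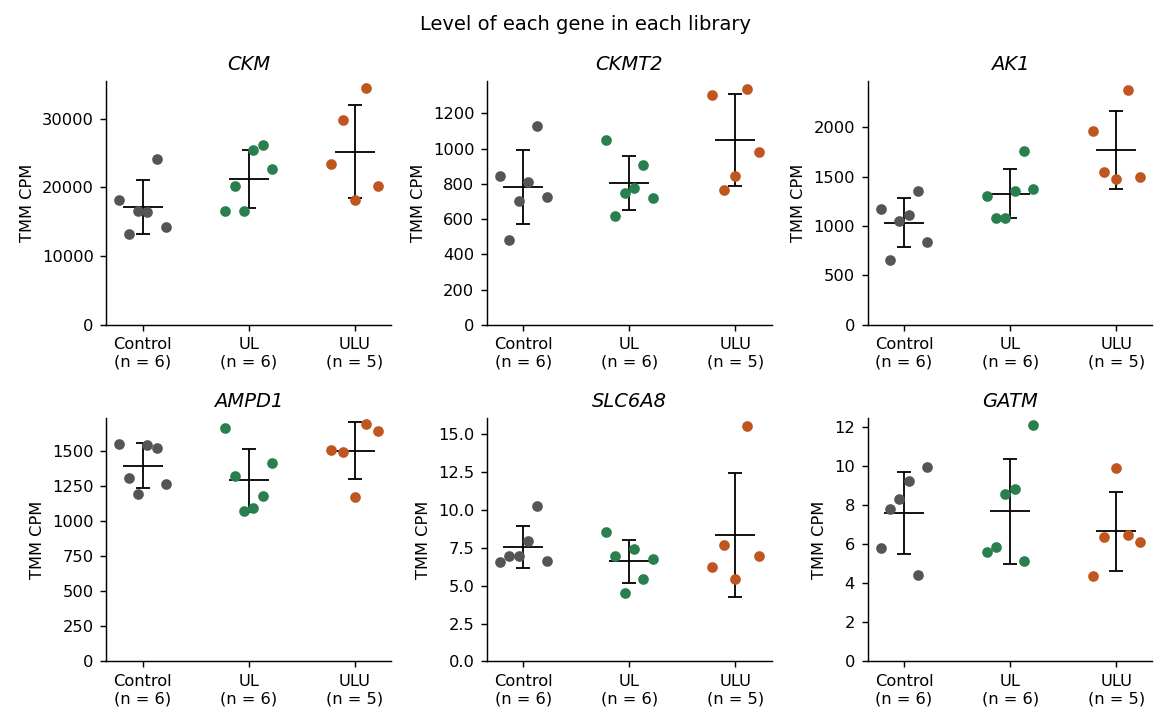
Level of each gene (TMM CPM, axes from 0) in each of 17 libraries by diet, with the mean and SD of each diet as a bar. The 5 ULU libraries of AK1, at 1476 CPM or more, lie above all 6 Control libraries, which reach 1358 CPM.

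Several libraries recurred at the ends of these ranges. Control 22 was the lowest of the 17 libraries for CKM, CKMT2 and AK1, and ULU 43 was the highest for CKM, CKMT2, AK1, AMPD1 and SLC6A8. Control 25 was the highest Control library for CKM, CKMT2, AK1 and SLC6A8 and the lowest for GATM. The TMM factor was highest in Control 22, at 1.21, and lowest in ULU 43, at 0.765, and the part of this in the levels was not tested.

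The ULU diet was compared with Control to see what seaweed with the enzyme goes with. AK1 was 1.72-fold higher in ULU, where its mean was 1771 ± 395 CPM (SD, n = 5) against 1032 ± 249.8 CPM (SD, n = 6). Its log2 fold change was 0.78 (standard error, SE, 0.18, 95% interval 0.40 to 1.16, edgeR quasi-likelihood test, Benjamini-Hochberg adjusted p = 0.0295), and 5 of 5 ULU libraries exceeded every Control library. Of the 6 genes, 1 was called at an adjusted p under 0.05, against 2.98% of all tested genes (423 of 14203, 282 higher and 141 lower), and none had a log2 fold change of at least 1 as well, which 0.415% of tested genes had (59). DESeq2 on all 17 libraries called 1069 genes and 2 of the 6, AK1 and CKM. The median log2 fold change of the 6 genes was 0.28, against −0.03 over all tested genes, and 3 of them had an unadjusted p under 0.05, as did 2678 of all tested genes.

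Neither creatine kinase passed the test in this comparison. CKM had a mean of 25201 ± 6788 CPM (SD, n = 5) in ULU against 17169 ± 3880.1 CPM (SD, n = 6) for the Control piglets. Its log2 fold change was 0.55 (SE 0.19, edgeR adjusted p = 0.118). With DESeq2 on all 17 libraries it was called (log2 fold change 0.56, adjusted p = 0.0403) but not with DESeq2 on the compared diets (0.56, adjusted p = 0.0545). In edgeR it was called without Control 25 (0.68, adjusted p = 0.0443). Over the alternatives other than leaving out a library, the adjusted p of CKM ranged from 0.0403 to 0.396. CKMT2 had a log2 fold change of 0.42 (SE 0.19, edgeR adjusted p = 0.244). AMPD1, at 0.11 (adjusted p = 0.705), SLC6A8, at 0.14 (adjusted p = 0.780), and GATM, at −0.19 (adjusted p = 0.729), lay within 1 SE of 0 in the same edgeR test. The sign of AMPD1 and SLC6A8 turned when library sizes alone were used for scaling, that of SLC6A8 turned without ULU 43 (−0.21), and that of GATM turned with the mitochondrial share as a covariate.

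The AK1 call in ULU against Control ended in 5 of the 17 edgeR fits that left out 1 library. These fits gave log2 fold changes from 0.65 to 0.87 and adjusted p from 0.0120 to 0.0772, and the p was above 0.05 without Control 22 (0.0538), Control 23 (0.0551), Control 26 (0.0585), ULU 40 (0.0676) or ULU 43 (0.0772). UL libraries enter this contrast only through the shared model. Every fit without a UL library kept the call (log2 fold change 0.78, edgeR adjusted p from 0.0276 to 0.0371). With only the Control and ULU libraries in the edgeR model the log2 fold change was 0.78 and the adjusted p 0.0653, within a range over the other alternatives of 0.00153 to 0.363.

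Other measures of the libraries stood beside the AK1 difference. The share of counts on the mitochondrial chromosome was 14.8% ± 0.697 (SD, n = 6) in Control and 10.2% ± 1.47 (SD, n = 5) in ULU, with no overlap (two-sided exact permutation test, p = 0.00216, adjusted over 30 library tests p = 0.0649). With that share as a covariate the log2 fold change of AK1 was 0.77 with a standard error of 0.30 (edgeR adjusted p = 0.363), and 8 genes were called in all. The summed level of the muscle fibre markers found (ACTA1, DES and MYF6, 3 of 6, ACTA1 being the most abundant) was 105679 CPM in ULU and 68199 CPM in Control (two-sided exact permutation test, p = 0.00866, adjusted p = 0.108). MB, RYR1 and TTN were not found by name, and no marker that was found stood at 0 in every library. In bulk RNA, fewer cells of a type and less RNA per cell cannot be told apart. The part of the mitochondrial share and of the fibre markers in the AK1 difference was not tested beyond the covariate.

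Some genes of slow and fast fibres rose in the same comparison. Of the slow fibre list, 6 of 7 genes were found and tested, 2 were called higher in ULU, none lower, 6 had an unadjusted p under 0.05, and the median log2 fold change was 0.72. TNNT1, slow troponin T, had a log2 fold change of 1.30 (SE 0.27, edgeR adjusted p = 0.0178), and TNNI1, slow troponin I, of 0.92 (SE 0.23, edgeR adjusted p = 0.0406). Of the fast fibre list, 9 of 11 genes were found and tested, 4 were called higher, none lower, 6 had an unadjusted p under 0.05, and the median was 0.48. In that list 8 genes lay above 0 and 1 below, PVALB, at −0.27 (edgeR adjusted p = 0.698). The 4 called were the fast myosin heavy chain entry MYH2 (0.53, edgeR adjusted p = 0.0397), fast troponin T TNNT3 (0.66, adjusted p = 0.0280), the calcium pump ATP2A1 (0.65, adjusted p = 0.0236) and ACTN3 (0.71, adjusted p = 0.0128). The most abundant genes per kb, the myosin light chains MYL2 of slow and MYL11 of fast fibres, had log2 fold changes of 0.76 (edgeR adjusted p = 0.120) and 0.14 (adjusted p = 0.744) in ULU against Control. Over all tested genes 2.98% were called in that comparison, 2678 had an unadjusted p under 0.05 and the median was −0.03. In UL against Control edgeR called 0 genes of either list, 6 of the slow and 4 of the fast genes had an unadjusted p under 0.05, and the medians were 0.57 and 0.33. Over all 14203 tested genes edgeR called 0 there, 1541 had an unadjusted p under 0.05 and the median was −0.00266. The joint contrast of both seaweed diets with Control called TNNT1 (1.12, edgeR adjusted p = 0.0277) and TNNT3 (0.54, adjusted p = 0.0420) from these lists. Over all tested genes edgeR called 1.46% (208 of 14203) in the joint contrast. In that contrast the TNNT1 call ended in 4 and the TNNT3 call in 14 of the 17 edgeR fits without 1 library, the adjusted p reaching 0.0849 without Control 22 and 0.111 without Control 23. With the mitochondrial share as a covariate TNNT1 was at 0.56 (edgeR adjusted p = 0.647) and TNNT3 at 0.52 (adjusted p = 0.413). The slow list summed to 3887 ± 1333 CPM (SD, n = 6) with the Control diet and to 6739 ± 2363 CPM (SD, n = 5) with ULU. The fast list summed to 116955 ± 24653 CPM (SD, n = 6) and 151834 ± 24782 CPM (SD, n = 5). In ULU against Control none of the 6 calls held with the mitochondrial share as a covariate, the edgeR adjusted p ranging from 0.260 for ACTN3 to 0.806 for TNNI1. That fit could separate diet from share only poorly, as stated above. The log2 fold changes were then 0.63 for TNNT1 and 0.35 for TNNI1, and 0.62 for MYH2, 0.64 for TNNT3, 0.61 for ATP2A1 and 0.70 for ACTN3. With only the Control and ULU libraries in the edgeR model all 6 calls ended as well, at adjusted p from 0.0526 for ATP2A1 to 0.0944 for MYH2. Log2 fold changes in that fit were 1.29 for TNNT1, 0.91 for TNNI1, 0.53 for MYH2, 0.66 for TNNT3, 0.65 for ATP2A1 and 0.70 for ACTN3. Scaling by library sizes alone ended the calls of TNNI1 (edgeR adjusted p = 0.0799) and ATP2A1 (0.0547), and testing without a filter on low counts those of MYH2 (0.126) and TNNT3 (0.0536, and 0.0935 in the joint contrast). Their log2 fold changes were then 0.77 for TNNI1, 0.45 for ATP2A1, 0.55 for MYH2 and 0.68 for TNNT3 (0.55 in the joint contrast). Of the 17 edgeR fits without 1 library, 2 ended the call of TNNT1, 9 that of TNNI1, 9 that of MYH2, 6 that of TNNT3, 3 that of ATP2A1 and 0 that of ACTN3. The largest adjusted p of these edgeR fits was 0.0526 for TNNT1, 0.0995 for TNNI1, 0.0851 for MYH2, 0.0652 for TNNT3 and 0.0664 for ATP2A1. The annotation entry named MYH2 spans the MYH1 and MYH4 loci and the one named MYH6 the MYH7 locus, so those 3 genes had no value of their own. The part of fibre type in the AK1 difference was not tested.

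The UL diet was compared with Control to see what the seaweed alone goes with, and none of the 6 genes passed the test. Of the 6 genes 0 were called by edgeR, against 0% of all tested genes (0 of 14203), with or without the fold change limit, for which the share was also 0%. Of all genes 1541 had an unadjusted p under 0.05, 1 of them among the 6. DESeq2 on all 17 libraries called 152 of the 31908 genes given to it, with 0 of the 6. AK1 averaged 1327 ± 248 CPM (SD, n = 6) with UL. Its log2 fold change was 0.36 (SE 0.17, 95% interval 0.00206 to 0.72, edgeR adjusted p = 0.457), with 2 of 6 UL libraries above the highest Control library. CKM had a log2 fold change of 0.31 (SE 0.19, edgeR adjusted p = 0.584) and 6 of 6 UL libraries above the Control median. CKMT2, at 0.04, AMPD1, at −0.11, SLC6A8, at −0.19, and GATM, at 0.02, had edgeR adjusted p from 0.799 to 0.988. The signs of CKMT2 and GATM turned with library sizes alone and when some of the libraries were left out, and that of CKMT2 also with the mitochondrial share as a covariate. The median log2 fold change was 0.03 over the 6 genes and −0.00266 over all tested genes.

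The ULU diet was compared with UL to see what the enzyme adds to the seaweed. Here 0 of the 6 genes were called by edgeR, against 0.0352% of all tested genes (5 of 14203), or 0.0141% with the fold change limit (2). DESeq2 on all 17 libraries called 252 of the 31908 genes given to it and 0 of the 6. An unadjusted p under 0.05 was seen for 1540 genes, of which 1 was among the 6, namely AK1. AK1 had a log2 fold change of 0.42 (SE 0.18, edgeR adjusted p = 0.424), with 2 of 5 ULU libraries above the highest UL library. CKMT2 followed at 0.38 (SE 0.19, edgeR adjusted p = 0.489), SLC6A8 at 0.34 (SE 0.24, adjusted p = 0.664) and −0.0073 without ULU 43. CKM, at 0.24, AMPD1, at 0.22, and GATM, at −0.21, had edgeR adjusted p from 0.587 to 0.840. When 1 library was left out, CKM ranged from 0.11 (without ULU 43) to 0.34 (without ULU 42). GATM then ranged from −0.40 (without ULU 42) to −0.033 (without UL 32). The median log2 fold change was 0.29 over the 6 genes and −0.02 over all tested genes.

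Since UL and ULU both held the seaweed, their mean was also compared with Control, a contrast that shares its libraries with those above. Here 0 of the 6 genes were called by edgeR, against 1.46% of all tested genes (208 of 14203, 113 higher and 95 lower), or 0.141% with the fold change limit (20). Of all genes 2433 had an unadjusted p under 0.05, 2 of them among the 6. DESeq2 called 661 of the 31908 genes given to it and 1 of the 6. That gene was AK1, with a log2 fold change of 0.57 (SE 0.16, edgeR adjusted p = 0.0715) and 7 of 11 seaweed libraries above the highest Control library. Its adjusted p was 0.0103 with DESeq2, 0.0481 in edgeR with library sizes alone and 0.0302 in edgeR without Control 25, over a range of 0.0103 to 0.466 for alternatives that kept every library. CKM had a log2 fold change of 0.43 (SE 0.17, edgeR adjusted p = 0.186) and CKMT2 of 0.23 (SE 0.16, adjusted p = 0.510). That of CKMT2 ranged from 0.0076 to 0.24 over alternatives that kept every library, and was 0.13 without Control 22 and 0.36 without Control 25. AMPD1, SLC6A8 and GATM lay between −0.08 and −0.0032, and each changed sign under some alternatives.

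**Figure D3:**
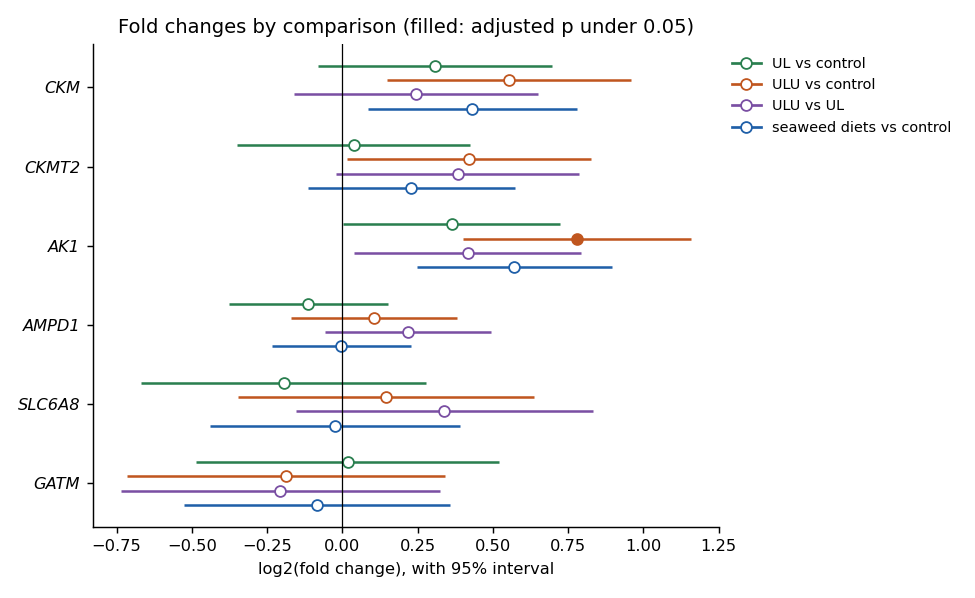
Log2 fold change of each gene in the 4 comparisons (horizontal axis), with 95% intervals as lines and a filled point where the adjusted p was under 0.05. The filled point is AK1 in ULU against Control, at 0.78 with an interval of 0.40 to 1.16.

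Ratios between the genes were computed per kb within each library and are given with no test. Their size depends on the merged exon lengths described above. The ratio of CKM to AK1 had a median of 5.81 for Control, 5.63 for UL and 4.77 for ULU, and ranged from 4.21 to 7.15 over all libraries. The ratio of CKM to CKMT2, cytosolic to mitochondrial creatine kinase, had medians of 25.7, 36.1 and 25.7 in the same order and ranged from 18.8 (UL 27) to 46.4 (ULU 41). The ratio of AK1 to AMPD1 was 0.909 to 1.62 in Control, 1.42 to 2.70 in UL and 1.65 to 2.55 in ULU, so ULU lay above all Control libraries and UL overlapped them. The ratio of CKM to AMPD1 had medians of 7.40, 10.1 and 9.95.

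Between piglets of 1 diet, AK1 varied together with both creatine kinases. Relations were computed for 15 pairs on log2 CPM after subtracting the mean of the diet, over 17 libraries, with two-sided permutation within diets and adjustment over the 15 pairs. CKMT2 and AK1 had a Pearson r of 0.83 (permutation p = 0.00042, adjusted p = 0.0063) and a Spearman rho of 0.75 (permutation p = 0.00204, adjusted p = 0.0153). Without Control 25 and Control 22, the libraries farthest from the median of CKMT2, r was 0.72. CKM and AK1 had a Pearson r of 0.77 (permutation p = 0.00124, adjusted p = 0.0093) and a Spearman rho of 0.76 (permutation p = 0.00125, adjusted p = 0.0153). Without Control 25 and ULU 43, r was 0.64. Both genes of a pair share a library's scaling factor, and no batch was labelled within which to repeat the relation.

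The remaining 13 pairs did not pass the adjusted threshold. CKM and CKMT2 had an r of 0.44 (permutation p = 0.110, adjusted p = 0.167; rho 0.39, permutation p = 0.149, adjusted p = 0.249) and 0.13 without Control 25 and ULU 43. AMPD1 and SLC6A8 had an r of 0.61 (permutation p = 0.0208, adjusted p = 0.0827; rho 0.55, permutation p = 0.0377, adjusted p = 0.141) and 0.49 without UL 27 and ULU 42. CKM and SLC6A8 had an r of 0.59 (permutation p = 0.0221, adjusted p = 0.0827; rho 0.49, permutation p = 0.0645, adjusted p = 0.143) and 0.28 without Control 25 and ULU 43. GATM had an r below 0 with each of the 5 other genes, from −0.21 with SLC6A8 to −0.53 with CKMT2 (permutation p = 0.0416, adjusted p = 0.125; rho −0.55, permutation p = 0.0343, adjusted p = 0.141). AMPD1 and SLC6A8 passed the adjusted threshold without UL 30 (r = 0.70, permutation adjusted p = 0.0477) and when the diet means were not subtracted (r = 0.65, adjusted p = 0.0104). CKM and SLC6A8 passed without UL 27 (r = 0.75, permutation adjusted p = 0.00960) or UL 31 (r = 0.69, adjusted p = 0.0298), and AK1 and SLC6A8 without UL 31 (r = 0.61, adjusted p = 0.0315). The number of pairs past the threshold ranged from 2 to 4 over the 17 sets without 1 library.

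**Figure D4:**
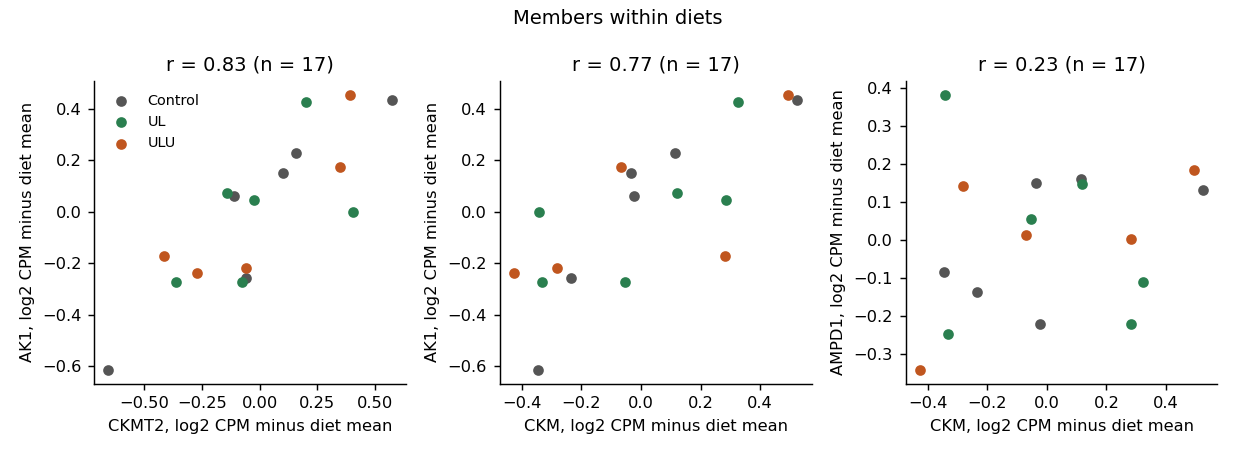
Deviation of log2 CPM from the diet mean for 3 pairs of genes (axes in log2 units), 1 point per library, with Pearson r over 17 libraries above each panel. CKMT2 and AK1 (r = 0.83) and CKM and AK1 (r = 0.77) line up, while CKM and AMPD1 (r = 0.23) scatter.

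The tested genes whose within-diet pattern was most like each of the 6 were listed by Pearson r over the 17 libraries, as a description with no p. For CKM these were CMYA5 (r = 0.92), a gene of striated muscle, GAPDH (0.91), the glycolytic enzyme, and VKORC1L1 (0.91). For CKMT2 they were HMCES (0.89), IDH3B (0.89), a subunit of isocitrate dehydrogenase in the citric acid cycle, and UBXN1 (0.89). For AK1 they were PIGC (0.94), UBXN1 (0.93) and VDAC1 (0.92), the channel of the outer mitochondrial membrane through which adenylates pass. UBXN1 thus appeared for both CKMT2 and AK1. For AMPD1 they were HMGB1 (0.87, named by position), FGD6 (0.84) and DPP9 (0.83). For SLC6A8 they were SMYD2 (0.91), DCAF6 (0.89) and USP24 (0.89). For GATM they were AOX2 (0.85, named by position, with a median of 0.316 CPM), GCNT1 (0.85) and CBLB (0.84).

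The wider pathway was described through 7 lists that together hold 47 genes, the 6 included. All 47 were found and 43 were tested, and CKMT1A, AK7, AK9 and XDH did not pass the filter on low counts. In ULU against Control 1 of the 43 was called higher (AK1) and 1 lower (SLC16A12), or 4.65%, against 2.98% of all tested genes, with a median log2 fold change of 0.12 against −0.03 over all tested genes. Of the 43, 14 had an unadjusted p under 0.05 there, against 2678 of all 14203 tested genes. DESeq2 on all 17 libraries called 8 of the 47 there, against 1069 of the 31908 genes given to it. In UL against Control 0 of the 43 were called by edgeR, 3 had an unadjusted p under 0.05 and DESeq2 called 1, where edgeR called 0 of all 14203 tested genes and 1541 had an unadjusted p under 0.05. In ULU against UL 0 were called by edgeR, 9 had an unadjusted p under 0.05 and DESeq2 called 2, against 5 called by edgeR and 1540 with an unadjusted p under 0.05 over all tested genes. By edgeR 1 was called lower in the contrast of both seaweed diets with Control (PRKAA1, 2.33%, against 1.46% of all tested genes), 8 had an unadjusted p under 0.05 (2433 of all tested genes) and DESeq2 called 2. Over the 31908 genes given to it, DESeq2 called 152 in UL against Control, 252 in ULU against UL and 661 in the joint contrast. The median log2 fold changes of the 43 genes in these 3 comparisons were −0.04, 0.17 and 0.01.

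Among genes of creatine synthesis and transport, GAMT, which completes the synthesis that GATM begins, was the most abundant at a mean of 95.8 CPM per kb, far above the 1.67 CPM per kb of GATM. GAMT had a log2 fold change of 0.37 in ULU against Control (edgeR adjusted p = 0.310). SLC16A12, a membrane transporter known to carry creatine, had 0.69 to 1.69 CPM in ULU and 1.58 to 4.01 CPM in Control, and the ranges overlapped. It fell in ULU, with a log2 fold change of −1.21 (SE 0.32, edgeR adjusted p = 0.0477), and 5 of 5 ULU libraries lay below the Control median. That call ended in 11 of the 17 edgeR fits that left out 1 library, the adjusted p reaching 0.117 without ULU 43. It also ended with only the Control and ULU libraries in the edgeR model (log2 fold change −1.22, adjusted p = 0.0717), without a filter on low counts (−1.19, adjusted p = 0.0783) and with the mitochondrial share as a covariate (−0.73, adjusted p = 0.670). Of the creatine kinases, CKB, the brain type, had a mean of 3.59 CPM per kb and a log2 fold change of 0.06 (edgeR adjusted p = 0.942), and CKMT1A reached at most 0.0973 CPM, below the floor of 3 counts. CKM and CKMT2 were thus the creatine kinases this muscle expressed at high level.

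AK1 also far exceeded other adenylate kinases. AK3, AK4, AK5, AK6 and AK8 had means from 0.363 CPM per kb (AK8) to 22.7 CPM per kb (AK6), against 598 CPM per kb for AK1. Their log2 fold changes in ULU against Control lay between −0.29 (AK4) and 0.51 (AK8), and none passed the edgeR test, where the smallest adjusted p was 0.471. In the purine nucleotide cycle AMPD1, at 339 CPM per kb, far exceeded AMPD2 (0.987 CPM per kb) and AMPD3 (0.698 CPM per kb). ADSL and ADSS1, which return IMP to AMP, had means of 65.6 and 28.96 CPM per kb. ADSS1, the muscle form, had a log2 fold change of 0.43 in ULU against Control (edgeR adjusted p = 0.165), and 0 of the 6 genes of that cycle were called by edgeR in any of the 4 comparisons (in ULU against Control 1 had an unadjusted p under 0.05). Of all 14203 tested genes, edgeR called 0% in UL against Control, 2.98% in ULU against Control, 0.0352% in ULU against UL and 1.46% in the joint contrast, and 2678 had an unadjusted p under 0.05 in ULU against Control.

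In nucleotide breakdown and salvage 0 of 8 tested genes were called by edgeR in ULU against Control, where the share over all tested genes was 2.98%, 3 had an unadjusted p under 0.05 and the median log2 fold change was −0.03. The most abundant, the nucleotidase NT5C2, had a log2 fold change of −0.57 (SE 0.19, edgeR adjusted p = 0.0993), ADA, adenosine deaminase, of −0.71 (adjusted p = 0.0703) and NT5C1A, which makes adenosine from AMP, of 0.64 (adjusted p = 0.129). Of the 9 AMP-activated kinase genes 0 were called by edgeR in ULU against Control and 4 had an unadjusted p under 0.05. PRKAA1, a catalytic subunit, fell in the seaweed diets: Control piglets averaged 33.7 ± 5.03 CPM (SD, n = 6), UL piglets 23.1 ± 4.64 CPM (SD, n = 6) and ULU piglets 25.0 ± 2.73 CPM (SD, n = 5). Its log2 fold change in the joint contrast was −0.49 (SE 0.11, edgeR adjusted p = 0.0401) and 11 of 11 seaweed libraries lay below the Control median. The call ended in 13 of 17 edgeR fits without 1 library, the adjusted p reaching 0.118 without Control 23. It was also lost without a filter on low counts (log2 fold change −0.48, edgeR adjusted p = 0.0630). With the mitochondrial share as a covariate it was lost at −0.38 (edgeR adjusted p = 0.516). PRKAA2, the other catalytic subunit and the most abundant of that list at 126 CPM per kb, had a log2 fold change of 0.10 in that contrast (edgeR adjusted p = 0.691). For mitochondrial adenylate exchange 0 of 6 genes were called by edgeR in any comparison, and in ULU against Control 2 had an unadjusted p under 0.05. Over all tested genes edgeR called 0% in UL against Control, 0.0352% in ULU against UL and 1.46% in the joint contrast. It called 2.98% in ULU against Control, where 2678 had an unadjusted p under 0.05. In ULU against Control the most abundant exchange gene, the ADP/ATP carrier SLC25A4, had a log2 fold change of 0.39 (SE 0.20, edgeR adjusted p = 0.292). VDAC1 had one of 0.51 there (edgeR adjusted p = 0.0639).

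**Figure D5:**
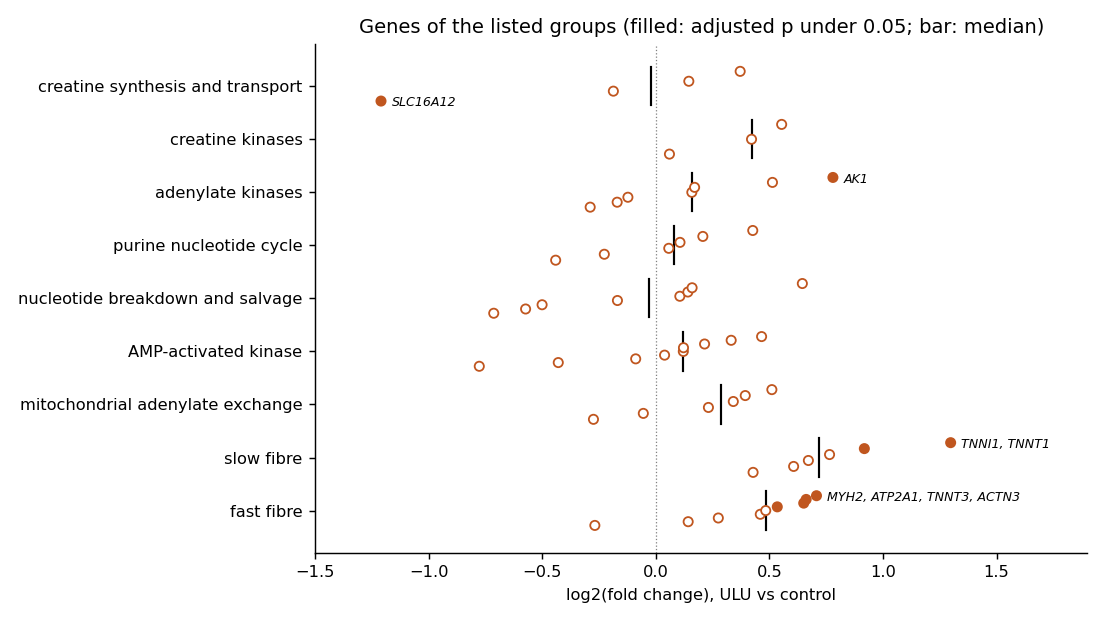
Log2 fold change in ULU against Control (horizontal axis) of each tested gene of the 7 energy lists and the 2 fibre lists, with the median of a list as a bar and filled, named points where the adjusted p was under 0.05. AK1 (0.78) and SLC16A12 (−1.21) are the filled points of the energy lists.

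Of 30 exact permutation tests on library totals, mitochondrial shares and marker sums, 3 had a p under 0.05 and 0 kept it after adjustment, and the 3 were tests of the mitochondrial share and of the muscle fibre markers. The summed levels over the 17 libraries ranged from 25.2 to 580.1 CPM for adipocyte markers (5 of 5 found, FABP4 the most abundant), from 82.1 to 230.04 CPM for endothelial markers (4 of 5, PECAM1) and from 17.7 to 132 CPM for leukocyte markers (5 of 5, CSF1R). They ranged from 2248 to 6458 CPM for fibroblast markers (5 of 5, COL3A1), from 116 to 229 CPM for smooth muscle markers (4 of 4, ACTA2) and from 0.849 to 4.84 CPM for red blood cell markers (4 of 4, AHSP). VWF was not found. LEP and SLC4A1 stood at 0 in some libraries and none of these markers stood at 0 in all. The fibroblast sum was lowest in ULU 43 (2248 CPM) and in Control 25 (2639.7 CPM), the libraries with the highest AK1 and CKM levels of their diets, and the part of this in those levels was not tested.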

How the data were processed

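RNA of longissimus muscle from 17 piglets was read as 1 library each. The authors used fastp for trimming and HISAT2 for alignment, and the deposited values are raw read counts per gene from featureCounts (version 2.0.1 in the header, Ensembl 104 annotation of Sscrofa11.1, default options, so strands were not separated and reads at several sites or over several genes were not counted). Here the counts were scaled with TMM and tested with edgeR 4.0.16 in 1 quasi-likelihood model of all 17 libraries, after filterByExpr, with Benjamini-Hochberg adjustment over 14203 genes. DESeq2 1.42.0 was an alternative (R 4.3.3, Python 3.11.15). Standard errors are the log2 fold change over the square root of F, and log2 CPM used a prior count of 2. Genes were named by identifier (15029), by the name column (3) or by position against RefSeq genes of the same assembly (961). Where both could be compared, 12012 of 12806 names by position equalled those by identifier. The tests were checked on simulated counts, and no outcome of that check is reported here. Named genes are the 6 members, listed energy and fibre genes called in any comparison, the most abundant gene of each list and the 3 genes most like each member. Other listed genes named (ADA, NT5C1A, ADSS1, ADSL, VDAC1, CKB, PVALB and the families of AK1 and AMPD1) were picked after their values were seen. Members and lists were chosen with earlier results of these data known. Alternatives changed the test, libraries, scaling, filter, fold change limit or a covariate. Protein data of the study were not used here.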

Additional observations from a re-analysis of the deposited data

Results flagged for a closer look

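In 111 groups of 5 or 6 libraries, 6 held 1 library far from the others of its diet, judged by its gap over the range of the group, and chance gives about 1 in 20. SLC6A8 was at 15.5 CPM in ULU 43 and between 5.46 and 7.67 CPM in the other ULU libraries. In the same library NT5C2 was at 85.0 CPM, against 59.3 to 65.3 CPM, and PRKAA2 at 515 CPM, against 296 to 358 CPM. Control 25 had 23433700 counts, against 16335300 to 17773800 in the other Control libraries, and a fibroblast marker sum of 2639.7 CPM, against 5428 to 5724 CPM. Control 24 had an adipocyte marker sum of 580.1 CPM, against 75.9 to 170.2 CPM.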

How the results depend on the processing

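Of 648 alternative values for the log2 fold changes of the 6 genes (24 results), 603 kept their direction and their side of the threshold, 7 lost a call, 6 gained one and 32 changed sign, none of them called. Of 270 values for the other named genes (10 results), 175 stayed and 95 lost their call. Of 285 values for relations, 280 stayed and 5 passed the threshold. Scaling by library sizes alone shifted the median log2 fold change of all genes by −0.19 in ULU against Control, −0.11 in ULU against UL and −0.13 in the joint seaweed contrast. In the joint contrast the compared diets are all 17 libraries, so the 2 DESeq2 settings are the same fit there, which these totals count under both settings. The cause of the changes under each setting was not tested.

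Genes called in UL against Control numbered 152 with DESeq2 on all libraries, 149 with DESeq2 on the compared diets, 2 with the mitochondrial share as a covariate and 0 to 16 without 1 library (16 without Control 25). In ULU against Control they numbered 59 with the fold change limit, 1069 and 825 with the same DESeq2 settings, 8 with the covariate, 111 in edgeR on the compared diets, 228 without a filter, and 147 (without ULU 43) to 799 (without Control 25). In ULU against UL they numbered 2 with the fold change limit, 8 with at least 1 CPM in 5 libraries, 252 and 246 with DESeq2, 2 with the covariate, 1 on the compared diets, 9 with library sizes alone, 8 without a filter, and 1 to 7 without 1 library. In the joint contrast they numbered 20 with the fold change limit, 661 with DESeq2, 4 with the covariate, 119 without a filter, and 48 (without Control 22) to 541 (without Control 25).

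Of the 6 genes, ULU against Control called 0 with the fold change limit, 2 with DESeq2 on all libraries, 0 with the covariate, 0 in edgeR on the compared diets, and 0 to 2 without 1 library (2 without Control 25). The joint contrast called 1 with DESeq2, 1 with library sizes alone, and 0 to 1 without 1 library (1 without Control 25).

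Signs turned as follows. In UL against Control, CKMT2 was −0.15 with the covariate, −0.0072 with library sizes alone and −0.068 to 0.17 without 1 library, and GATM was −0.088 with library sizes alone and −0.15 to 0.12 without 1 library. In ULU against Control, AMPD1 was −0.083 and SLC6A8 −0.087 with library sizes alone, SLC6A8 was −0.21 to 0.27 without 1 library, and GATM was 0.28 with the covariate. In ULU against UL, SLC6A8 was −0.0073 to 0.46 without 1 library. In the joint contrast, AMPD1 was 0.0059 without a filter and −0.046 to 0.035 without 1 library, SLC6A8 was 0.16 with the covariate and −0.20 to 0.083 without 1 library, and GATM was 0.30 with the covariate and −0.20 to 0.019 without 1 library. Pairs of genes past the threshold numbered 2 to 4 without 1 library (4 without UL 31). SLC6A8 and GATM, with 90 to 315 counts per library, had the widest intervals.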
